A study of Homo sapiens with 12 samples.

Results

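C13, labelled as a cisplatin-resistant ovarian cancer cell line, was compared with OV2008, the line it was derived from, in the 4 libraries of this pair out of the 12 RNA-seq libraries of the study. Genes were taken as differing between the lines when the difference passed the test over all libraries and had the same sign with vehicle and with quinacrine (QC), an antimalarial drug. Of 20403 genes tested, 1812 (8.88%) met this rule, 855 of them higher in C13 (4.19%) and 957 lower (4.69%). OV2008 and C13 were each treated for 6 h with 8 µM QC or with vehicle, and there was 1 library per line and treatment. Both are established cell lines, and no library was labelled as treated with cisplatin. The other 8 libraries are from HeyA8 and its multidrug-resistant partner HeyA8-MDR and from SK-OV-3 and its taxane-resistant partner SK-OV-3-TR, treated in the same way. No line had a replicate of its own. The spread behind each p-value of the line comparisons is therefore the variation of the QC response among the 6 lines. C13 is 1 line selected for resistance, so a difference between the lines cannot be told apart from any other difference in their culture history.

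Cisplatin forms adducts with the bases of DNA, and cells remove such adducts by nucleotide excision repair or deal with the resulting crosslinks by homologous recombination, the Fanconi pathway and translesion synthesis. Before it reaches DNA the drug can enter and leave cells through copper transporters and ABC transporters, and it can be bound by glutathione and metallothioneins. NRF2, encoded by NFE2L2, is the transcription factor that drives the enzymes of glutathione synthesis and many detoxifying reductases. Keratins, cadherins and integrins set the epithelial character of carcinoma cells, and interferon-stimulated genes respond to type I interferon signaling.

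Reads counted on genes totalled 18739626 in OV2008 vehicle, 22974846 in OV2008 QC, 29884628 in C13 vehicle and 23699105 in C13 QC, within the range of 17782556 to 30585059 over all 12 libraries. Levels are given below as CPM, counts scaled to library size and TMM factors, always with the vehicle library before the QC library. They are not corrected for gene length, so they compare libraries and not genes. The HeyA8 QC library had the largest shifts toward the other line of its pair. Among genes at least 8-fold different between HeyA8 and HeyA8-MDR with vehicle, its level had moved from HeyA8 toward HeyA8-MDR by a median of 37.9% for 65 genes higher in HeyA8-MDR and 52.9% for 113 genes lower there. For OV2008 QC the corresponding shifts toward C13 were 1.08% (61 genes) and 33.2% (76 genes). For C13 QC toward OV2008 they were 0.0347% (76 genes) and 6.62% (61 genes). HeyA8-MDR QC had shifts toward HeyA8 of 3.68% (113 genes) and 30.2% (65 genes), and the SK-OV-3 and SK-OV-3-TR QC libraries at most 12.2%. The genes were chosen by the same vehicle libraries from which the shifts were measured. Without the HeyA8 and HeyA8-MDR libraries, 2056 genes were called between C13 and OV2008. The comparison with the SK-OV-3 pair alone gave 4062 genes, but in the fit of all 12 libraries, which keeps the HeyA8 libraries.

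The labelled cell type was checked against marker genes. The summed level of 14 squamous epithelial markers was 21154 and 16023 CPM, without TMM scaling, in OV2008 and 6406 and 6919 in C13, against 305 to 2760 in the other lines. Of 15 ovarian and Mullerian markers, SOX17, CDH6, PAX2 and EMX2 had at most 4 counts in each of the 4 libraries, and the sum of the list was 674 and 552 CPM in OV2008 and 282 and 298 in C13. PAX8, which marks Mullerian epithelium, had 135 and 267 counts in OV2008 and 590 and 657 in C13 and was higher in C13 (log2 difference 1.19, adjusted p = 0.0172). Without TMM scaling, PAX8 stood at 7.20 to 27.7 CPM in these 4 libraries and at 210 to 552 CPM in those of the other lines. MSLN, encoding mesothelin, had 29 and 34 counts in OV2008 and 509 and 364 in C13. Like PAX8, it was higher in C13 (log2 difference 3.29, SE 0.44). BCAM, a laminin-binding adhesion molecule that made up most of the list's sum in OV2008, fell from 612 and 459 CPM in OV2008 to 184 and 159 CPM in C13 (log2 difference -1.64, SE 0.23). Strong squamous markers go against the labelled ovarian origin of the lines, whose identity was not tested, while Mullerian markers were mixed. ESR1 had 625 and 687 counts in OV2008 and 747 and 630 in C13, and MECOM 682 and 896 and 792 and 843. PAX2 and EMX2 also had at most 12 counts in each library of the other lines. Among those lines the ovarian and Mullerian sum ranged from 291 CPM in HeyA8-MDR QC to 1915 in SK-OV-3 vehicle. Markers of other cells were low, with summed levels of 0.836 to 1.31 CPM for leukocytes, 12.3 to 15.9 for fibroblasts and 7.90 to 14.9 for endothelial cells. How far squamous character enters the differences below was not tested.

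The quasi-likelihood test of edgeR decided the calls, since the rule on signs removed none of the 1812 genes with an adjusted p under 0.05. A shared sign in both treatments is part of the definition of a called gene and is no result, and 69.9% of all genes tested had one. Genes called higher in C13 had a median log2 difference of 1.53 in the vehicle pair and 1.54 in the QC pair, and genes called lower had medians of -1.31 and -1.25. A difference of at least 1 log2 unit in both pairs was met by 571 genes called higher and 553 called lower, and of at least 3 log2 units by 83 and 96. In counts simulated from these libraries, the fit called 25.0% of 104 genes changed 2-fold and 84.4% of 96 genes changed 4-fold. A gene that missed the threshold may therefore still differ by 2-fold. The changed genes were drawn only from genes above a minimum mean count, so the rates do not cover genes with few counts. The simulated QC effect was the same in every line. Just inside the threshold lay MAU2 and PEF1-AS1 with adjusted p of 0.04997 and 0.04998, and just outside lay DPYSL2 and CENPN with 0.05004 and 0.05004.

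**Figure D1:**
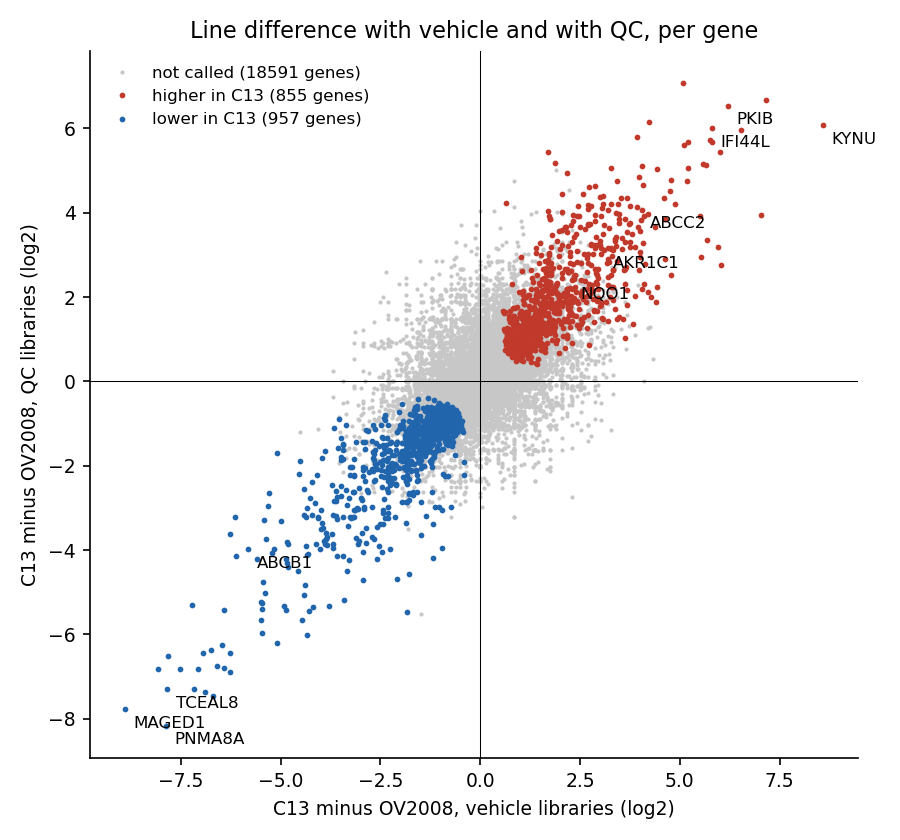
Each point is 1 of the 20403 genes, with the log2 difference C13 minus OV2008 in the vehicle libraries on the x axis and in the QC libraries on the y axis. Red marks the 855 genes called higher in C13 and blue the 957 called lower, which by definition share a sign in both pairs.

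The genes that rose most in C13 were low or near 0 in OV2008. PKIB, which encodes an inhibitor of protein kinase A, had 3 and 2 counts in OV2008 and 554 and 424 in C13, and the summed difference was 140.4-fold with a 95% counting interval of 59.98 to 433. KYNU, the kynureninase of tryptophan breakdown, stood at 0 and 0.529 CPM in OV2008 and 32.6 and 41.6 CPM in C13 (log2 difference 6.98, SE 0.74, adjusted p = 0.000165). COL16A1, a fibril-associated collagen chain, rose from 1.68 and 2.69 CPM in OV2008 to 94.6 and 145 CPM in C13 (log2 difference 5.76, SE 0.35, adjusted p = 7.43e-07). Both OV2008 libraries lay below both C13 libraries for these genes, which the choice of genes by the smaller of the pair differences ensures.

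Several of the other leading genes encode secreted or surface proteins. LOXL4, a lysyl oxidase-like enzyme that crosslinks collagen, had 2 and 0 counts in OV2008 and 198 and 302 in C13, a summed difference of 179.5-fold with a 95% counting interval of 49.4 to 1486. NPR3, the clearance receptor for natriuretic peptides, stood at 2.25 and 1.76 CPM in OV2008 and 85.9 and 61.4 CPM in C13 (log2 difference 5.20, SE 0.39, adjusted p = 5.41e-06). BDNF, a neurotrophin, stood at 0.449 and 0.882 CPM in OV2008 and 12.97 and 19.8 CPM in C13, a log2 difference of 4.59 (SE 0.39). In all 3 genes the lower of the C13 values was above the higher of the OV2008 values. PTPRM, a receptor tyrosine phosphatase, TM4SF19, a tetraspan membrane protein, ITGBL1, a secreted integrin beta-like protein, and ST6GALNAC5, a sialyltransferase, had log2 differences of 5.47, 4.52, 5.25 and 5.86. JPH2, a junctophilin that tethers endoplasmic reticulum to the plasma membrane, stood at 0.337 and 0.0882 CPM in OV2008 and 27.1 and 7.40 CPM in C13, so its QC library was the lower of the C13 libraries. CCDC9B, a coiled-coil protein, stood at 1.46 and 1.37 CPM in OV2008 and 53.4 and 70.5 CPM in C13. SELENBP1, a selenium-binding protein, and the long noncoding RNA LINC01322 had 0 counts in both OV2008 libraries and were at least 18.1-fold and 27.98-fold higher in C13, with the bound set by 3 counts per library. The noncoding RNAs LCAL1 and LINC01895 had at most 2 counts in each OV2008 library, with summed differences of 101-fold with a 95% counting interval of 27.8 to 840.0 and 70.4-fold with a 95% counting interval of 19.2 to 585.

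The largest falls were genes with no or almost no reads in C13. Of all genes tested, 15 had at least 50 counts in both OV2008 libraries and 0 in both C13 libraries, and 5 had the opposite pattern. With at most 3 counts in each library of the lower line, the numbers were 26 and 13. MAGED1, an adaptor protein of p75 neurotrophin receptor signaling, fell from 71.96 and 51.5 CPM in OV2008 to 0.0668 and 0.151 CPM in C13 (log2 difference -9.10, SE 0.37, adjusted p = 3.8e-08). TCEAL8, a transcription elongation factor A-like protein, had 345 and 301 counts in OV2008 and 0 and 0 in C13, which made it at least 117-fold lower in C13. B3GALNT1, the globoside synthase, had 216 and 301 counts in OV2008 and 0 and 0 in C13, at least 117-fold lower. MAGED1 still had 2 and 4 counts in C13.

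TCEAL8 and B3GALNT1 are printed with the 250 bases before their annotated start because both were at 0 counts in C13, with each CG dinucleotide, the site of DNA methylation, in capitals. The sequences are from RefSeq on GRCh38.p14 and read 5′ to 3′ on the gene's strand, TCEAL8 at chrX:103255156-103255405, minus strand and B3GALNT1 at chr3:161105350-161105599, minus strand.
TCEAL8: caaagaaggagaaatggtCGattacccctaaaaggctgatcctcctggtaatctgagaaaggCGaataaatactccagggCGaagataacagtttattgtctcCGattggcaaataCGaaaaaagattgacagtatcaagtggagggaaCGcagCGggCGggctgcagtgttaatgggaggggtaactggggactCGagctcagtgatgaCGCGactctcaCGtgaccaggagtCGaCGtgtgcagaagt
B3GALNT1: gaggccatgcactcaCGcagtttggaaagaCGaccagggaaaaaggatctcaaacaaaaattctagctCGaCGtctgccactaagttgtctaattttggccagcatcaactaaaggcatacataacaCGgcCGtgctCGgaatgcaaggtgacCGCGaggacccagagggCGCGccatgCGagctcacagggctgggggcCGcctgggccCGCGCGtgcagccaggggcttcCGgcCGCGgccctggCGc
TCEAL8 holds 14 CG dinucleotides in this window and B3GALNT1 holds 20, where the median over 13229 promoters of genes tested was 20. At least as many as in TCEAL8 were found in 70.5% of those promoters, and at least as many as in B3GALNT1 in 51.7%. Over the window that runs on to 50 bases after the start, at least 20 CG dinucleotides were found in 11 of 19 genes with at least 50 counts in OV2008 and at most 3 in C13 (57.9%), in 2 of 9 with the opposite pattern (22.2%) and in 66.1% of all promoters of genes tested. Among genes with at least 50 counts in all 4 libraries the share was 75.5%. DNA methylation was not measured.

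The other genes lost in C13 have varied roles. PNMA8A, a paraneoplastic antigen family member, was at least 197-fold lower with 352 and 552 counts in OV2008 and 0 and 0 in C13. NLRP2, a pattern recognition receptor that limits NF-kB activity, and SPART, the spartin protein of endosomes and lipid droplets, also had 0 counts in both C13 libraries and were at least 84.8-fold and 80.6-fold lower. RTL8B, a gene derived from a retrotransposon Gag, and NUDT11, a diphosphoinositol polyphosphate phosphohydrolase, were at least 84.5-fold and 64.6-fold lower. CHST10, a sulfotransferase, was at least 31.5-fold lower. MTX3, a mitochondrial outer membrane protein, had 278 and 340 counts in OV2008 and 2 and 0 in C13, a summed difference of 430.4-fold with a 95% counting interval of 119 to 3562. BCAT1, the cytosolic aminotransferase of branched-chain amino acids, fell from 52.4 and 43.5 CPM in OV2008 to 0.201 and 0.302 CPM in C13 (log2 difference -7.56, SE 0.41, adjusted p = 2.44e-07). HCLS1, a cortactin-related protein of blood cells, fell from 48.8 and 41.2 CPM in OV2008 to 0.468 and 0.453 CPM in C13, a log2 difference of -6.59 (SE 0.32). TUB, the tubby protein, had 339 and 331 counts in OV2008 and 0 and 2 in C13, and SDK2, a sidekick adhesion molecule, had 223 and 158 counts in OV2008 and 1 and 0 in C13.

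Several zinc finger genes of chromosome 19 were among the genes near 0 in C13, and they were grouped after their values had been seen. ZNF888 and ZNF813 had 127 and 212 counts in OV2008 and 0 and 0 in C13 and 116 and 226 counts in OV2008 and 0 and 0 in C13. ZNF816 and ZNF91 had 66 and 118 counts in OV2008 and 0 and 0 in C13 and 67 and 96 counts in OV2008 and 0 and 0 in C13. ZNF320 had 184 and 240 counts in OV2008 and 0 and 1 in C13. ZNF320, ZNF888, ZNF321P and ZNF816 were the 4 genes called in a block of 40 neighbouring genes on chromosome 19, while neighbours such as ZNF28 and ZNF468 had log2 differences of 0.26 and -0.02. The median over that block was 0 in both pairs. Of 236 chromosome 19 genes named ZNF with a number, 13 were lower in C13 and 2 higher, with a median log2 difference of -0.05. By the share called, 6.36% against 8.88% of all genes, they did not stand out, but some had 0 counts in all 4 libraries. At least 50 counts in both OV2008 libraries and at most 3 in both C13 libraries were found in 5 of the 236, against 26 of all 20403 genes. Zinc finger genes are similar in sequence and some overlap, so the counts of single members are uncertain.

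**Figure D2:**
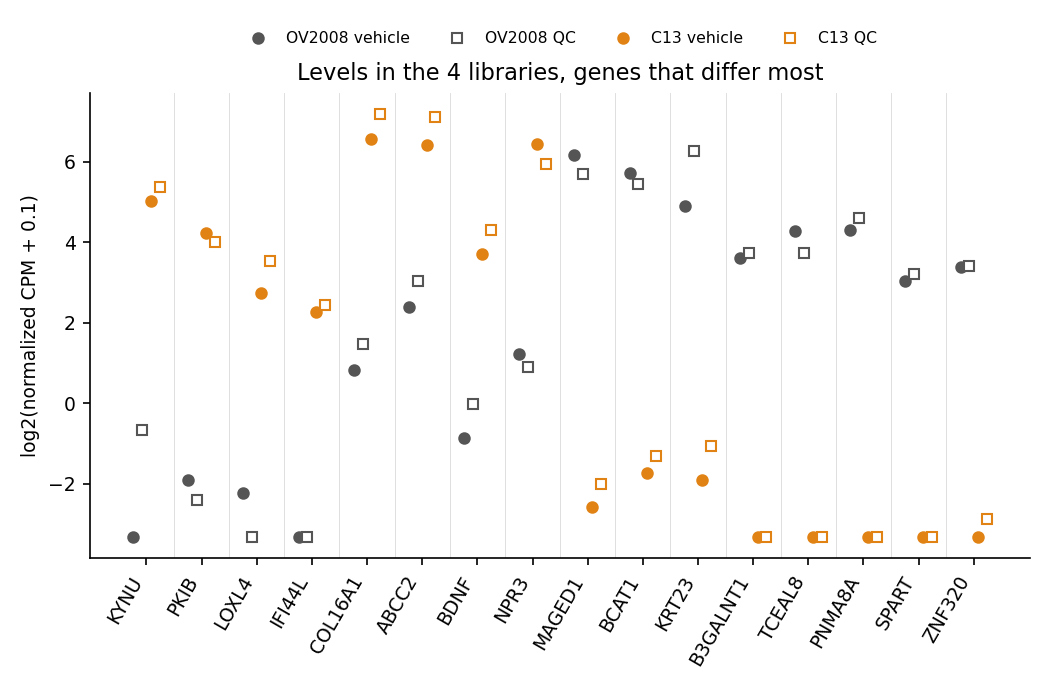
Levels of 16 genes chosen for the size of their difference, as log2(CPM + 0.1), in the 4 libraries. Gray symbols are OV2008 and orange symbols C13, filled for vehicle and open for QC, and the lowest position on the axis stands for 0 counts. The 8 genes on the left have both C13 symbols above both OV2008 symbols, and the 8 genes on the right have them below, which follows from how they were chosen.

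Calls among transport genes went both ways. Of 27 genes for copper and platinum transport, 3 were higher in C13 (ABCC2, ABCG2 and CCS) and 5 lower (ABCB1, ATP11B, ABCC1, LRRC8C and ABCC5), which is 29.6% called against 8.88% of all genes, with a list median of -0.24 against 0.05 over all genes tested. Scaling by library size alone gave 3 higher and 3 lower. The number lower was 2 without OV2008 vehicle or C13 QC and 1 without OV2008 QC or C13 vehicle. ABCC2, the MRP2 pump that exports glutathione conjugates, rose from 5.11 and 8.16 CPM in OV2008 to 85.6 and 138 CPM in C13 (log2 difference 4.07, SE 0.46, adjusted p = 0.000168). ABCG2, the breast cancer resistance protein, rose from 21.1 and 24.2 CPM in OV2008 to 101 and 77.6 CPM in C13 (log2 difference 1.97, SE 0.28, adjusted p = 0.000884). ABCB1, which encodes P-glycoprotein, fell from 38.3 and 8.38 CPM in OV2008 to 0.602 and 0.453 CPM in C13 (log2 difference -5.39, SE 0.94, adjusted p = 0.00378). For ABCB1 the OV2008 QC library held less than the OV2008 vehicle library, both were above C13, and the call was lost when only the QC pair was used, as it was for ABCG2. CCS, the copper chaperone of superoxide dismutase, had a log2 difference of 1.17 (SE 0.27), and ATP11B, a phospholipid flippase linked to platinum export, one of -1.03 (SE 0.19), and both calls were lost without OV2008 QC or C13 vehicle.

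The copper transporters themselves did not pass edgeR's test. SLC31A1, the main copper importer CTR1, stood at 77.1 and 82.3 CPM in OV2008 and 72.5 and 68.1 CPM in C13, a log2 difference of -0.18 (SE 0.19). ATP7A, a copper-exporting ATPase, stood at 25.6 and 12.2 CPM in OV2008 and 12.3 and 8.57 CPM in C13 with an adjusted p of 0.0785 from edgeR, but DESeq2 called it lower in C13 (log2 difference -0.84, adjusted p = 0.0206). ATP7B and the copper chaperone ATOX1 had log2 differences of 0.00 (SE 0.32) and 0.28 (SE 0.28). SLC31A2, a relative of CTR1, had 0.52 (SE 0.53). The values of ATP7B and ATOX1 in OV2008 and C13 overlapped, and both SLC31A1 values in C13 were slightly below those in OV2008. Of 5 metallothionein genes tested, 0 were called by edgeR, 0 had an unadjusted p under 0.05, and DESeq2 called 0. MT2A, the most widely expressed of them, stood at 94.1 and 165 CPM in OV2008 and 165 and 167 CPM in C13, and MTF1, the metal-responsive transcription factor, had a log2 difference of 0.06 (SE 0.22).

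Among genes of glutathione synthesis and NRF2 targets all calls were higher in C13. Of 40 tested, 16 were higher in C13 and none lower (40% called, against 8.88% of all genes), with a median log2 difference of 0.65, and 24 did not pass. The 16 were AKR1C2, AKR1B10, GPX2, AKR1C1, NQO1, AKR1C3, HMOX1, GSTA4, GPX3, ME1, GCLM, FTL, GCLC, PGD, AKR1B1 and TKT. NQO1, a quinone reductase, rose from 144 and 126 CPM in OV2008 to 714 and 669.9 CPM in C13 (log2 difference 2.35, SE 0.25, adjusted p = 0.00013). GPX2, a glutathione peroxidase, rose from 18.02 and 4.63 CPM in OV2008 to 165 and 78.96 CPM in C13 (log2 difference 3.61, SE 0.32, adjusted p = 2.45e-05). AKR1B10, an aldo-keto reductase, rose from 4.04 and 11.5 CPM in OV2008 to 57.7 and 129 CPM in C13 (log2 difference 3.62, SE 0.40, adjusted p = 0.000162). The QC library was the lower one in both lines for GPX2 and the higher one in both lines for AKR1B10.

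Both subunits of glutamate-cysteine ligase, the first enzyme of glutathione synthesis, were higher. The modifier subunit GCLM stood at 26.04 and 26.4 CPM in OV2008 and 81.98 and 65.9 CPM in C13 (log2 difference 1.51, SE 0.32, adjusted p = 0.0112). The catalytic subunit GCLC stood at 89.3 and 40.9 CPM in OV2008 and 156 and 108 CPM in C13 (log2 difference 1.06, SE 0.29, adjusted p = 0.0361). AKR1C1 and AKR1C2, hydroxysteroid dehydrogenases of nearly identical sequence, had log2 differences of 3.15 (SE 0.34) and 4.39 (SE 0.50), and reads of the AKR1C genes may be split among them. SLC7A11, the cystine importer, stood at 99.9 and 118 CPM in OV2008 and 236 and 249.8 CPM in C13. It did not pass edgeR's test (adjusted p = 0.278). It was called higher by edgeR without the filter (log2 difference 1.12, adjusted p = 0.000169) and with only the 4 libraries of the pair (log2 difference 1.13). NFE2L2 itself stood at 168 and 139 CPM in OV2008 and 104 and 114 CPM in C13, a log2 difference of -0.50 (SE 0.26) that did not pass, and GSTP1, the abundant glutathione transferase, had 0.29 (SE 0.23). Without the OV2008 QC library or without the C13 vehicle library the list had 8 genes higher, GCLM and GCLC no longer among them, and over all alternatives it had 7 to 24 higher and 0 to 2 lower.

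The promoters of GCLM and GPX2 are shown because both genes rose and hold the core letters of the antioxidant response element, TGACNNNGC on either strand, in the 250 bases before the start (RefSeq, GRCh38.p14). GCLM lies at chr1:93909431-93909680, minus strand and GPX2 at chr14:64942746-64942995, minus strand, and the match is in capitals.
GCLM: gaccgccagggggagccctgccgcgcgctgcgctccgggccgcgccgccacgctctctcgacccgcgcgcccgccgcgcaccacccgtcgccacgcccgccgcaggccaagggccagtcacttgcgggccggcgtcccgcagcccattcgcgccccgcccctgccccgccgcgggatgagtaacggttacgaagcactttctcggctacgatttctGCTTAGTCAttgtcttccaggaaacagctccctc
GPX2: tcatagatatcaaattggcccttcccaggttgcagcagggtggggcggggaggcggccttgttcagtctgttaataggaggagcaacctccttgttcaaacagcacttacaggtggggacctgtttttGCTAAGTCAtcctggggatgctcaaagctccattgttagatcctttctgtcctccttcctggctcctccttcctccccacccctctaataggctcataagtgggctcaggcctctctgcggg
Among the listed genes higher in C13, 5 of the 14 with a promoter sequence held this motif (35.7%), as did 8 of the 31 tested members with one (25.8%). Among the 13229 promoters of genes tested 1600 did (12.1%), and among all 27305 promoters 11.0% did. A match is a match of letters in this window only.

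**Figure D3:**
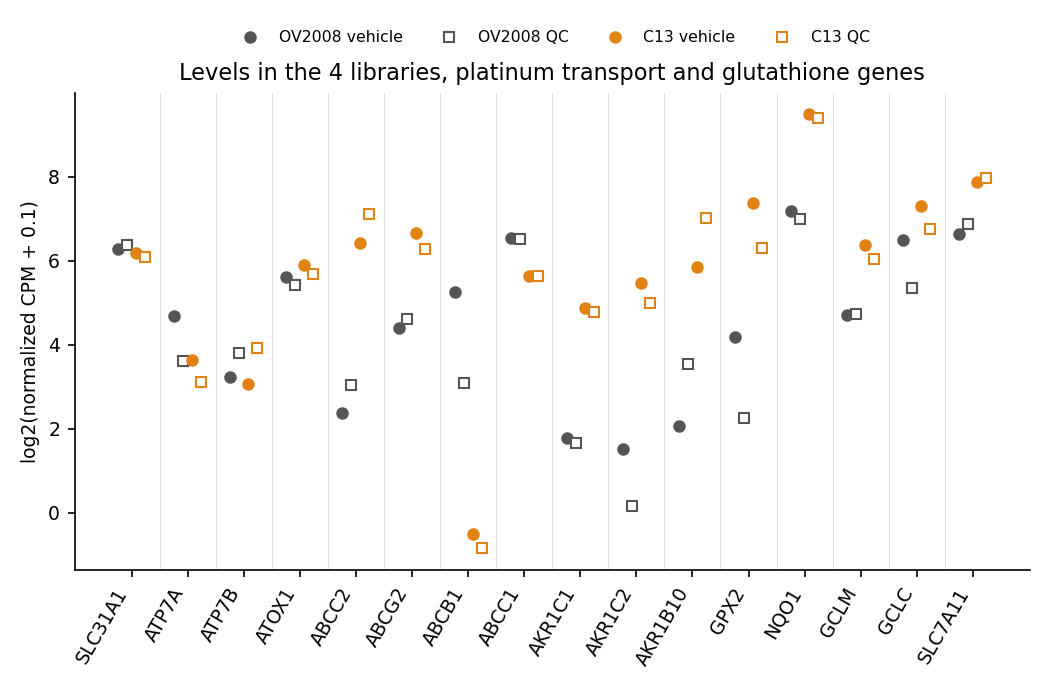
Levels of 16 transport and glutathione genes as log2(CPM + 0.1) in the 4 libraries, gray for OV2008 and orange for C13, filled for vehicle and open for QC. ABCC2, ABCG2 and the glutathione genes from AKR1C1 to SLC7A11 have both C13 symbols above both OV2008 symbols, ABCB1 and ABCC1 have them below, and the symbols of SLC31A1, ATP7B and ATOX1 lie close together or overlap.

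Few DNA repair genes differed. Of 29 nucleotide excision repair genes, GTF2H3, a TFIIH subunit, was higher (log2 difference 0.74, SE 0.21), a call lost with the size factors of DESeq2 and without any 1 of the 4 libraries, and RPA1, the large subunit of the single-strand binding protein RPA, was lower. RPA1 stood at 258 and 239.9 CPM in OV2008 and 114 and 105 CPM in C13 (log2 difference -1.18, SE 0.23, adjusted p = 0.00769), and the call was lost without OV2008 vehicle or without C13 QC. ERCC1 and ERCC4, the nuclease that cuts 5′ of the adduct, and the damage verifier XPA had log2 differences of -0.69 (SE 0.26), -0.75 (SE 0.35) and -0.11 (SE 0.24), none of which passed. In mismatch repair 1 of 14 genes was called, POLD4, a small subunit of DNA polymerase delta, at 1.07 (SE 0.27), a call lost without any 1 of the 4 libraries, and MSH6, a mismatch recognition protein, had -0.57 (SE 0.23) and did not pass.

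Of 38 genes of homologous recombination and the Fanconi pathway, XRCC3 and FANCA were higher and RBBP8 lower. RBBP8, which encodes the end resection factor CtIP, fell from 98.2 and 86.5 CPM in OV2008 to 30.9 and 33.8 CPM in C13 (log2 difference -1.52, SE 0.27, adjusted p = 0.0044). XRCC3, a recombination protein, had a log2 difference of 1.02 (SE 0.28) and FANCA, a subunit of the Fanconi core complex, 0.80 (SE 0.23). FANCA lost its call with the size factors of DESeq2 and without any 1 of the 4 libraries, and XRCC3 without any except C13 QC. BRCA1, BRCA2 and PALB2 had -0.66 (SE 0.29), 0.03 (SE 0.45) and -0.14 (SE 0.25), and none passed. In translesion synthesis the only call among 14 genes was SHPRH, a ubiquitin ligase for PCNA, at -0.89 (SE 0.24), lost without any 1 of the 4 libraries, while POLH, REV1 and REV3L had 0.51 (SE 0.27), 0.02 (SE 0.20) and -0.39 (SE 0.38). The shares called in these 4 repair lists, 2 of 29, 1 of 14, 3 of 38 and 1 of 14, were near the 8.88% of all genes.

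Of 36 growth arrest and damage response genes 3 were called higher and 1 lower (11.1%, against 8.88% of all genes), with a median log2 difference of 0.46. Among them SPATA18, a mitochondrial quality control factor, GADD45A, a growth arrest protein, and CCNG1, cyclin G1, were higher, with log2 differences of 2.37 (SE 0.46), 1.43 (SE 0.29) and 1.21 (SE 0.32). Each of these calls was lost without at least 1 of the 4 libraries, SPATA18 without C13 QC, GADD45A without OV2008 vehicle or C13 vehicle, and CCNG1 without any except OV2008 vehicle. CDKN1A, encoding p21, stood at 68.9 and 339 CPM in OV2008 and 126 and 405 CPM in C13, and MDM2 at 51.4 and 125 CPM in OV2008 and 35.2 and 153 CPM in C13. For both genes the difference between QC and vehicle libraries was larger than that between the lines, and neither passed the line comparison. Of 35 genes of the BCL2 family and death receptors, edgeR called 1 (2.86%), XIAP, an inhibitor of caspases, at -0.72 (SE 0.21), and this call was lost with library size scaling, without the filter and without any 1 of the 4 libraries. BCL2, BCL2L1 and MCL1 had 0.09 (SE 0.32), 0.38 (SE 0.26) and 0.15 (SE 0.24), and the death receptor gene FAS had 0.95 (SE 0.28) with an adjusted p of 0.0502 from edgeR, 0.0315 from DESeq2, 0.0372 with library size scaling and 0.0155 without the filter.

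All calls among keratins were lower in C13. Of 21 tested, 10 fell, none rose and 11 did not pass (47.6% called, against 8.88% of all genes), with a median log2 difference of -0.95. KRT5, the keratin of basal cells, fell from 11240.0 and 8919 CPM in OV2008 to 3072 and 2556 CPM in C13 (log2 difference -1.83, SE 0.25, adjusted p = 0.00177). KRT6A, a keratin of activated squamous epithelium, fell from 2490.0 and 1119 CPM in OV2008 to 120.5 and 74.96 CPM in C13 (log2 difference -4.14, SE 0.25, adjusted p = 8.28e-06). KRT23 fell from 29.6 and 76.8 CPM in OV2008 to 0.167 and 0.378 CPM in C13 (log2 difference -7.55, SE 0.48, adjusted p = 5.41e-06). KRT8 and KRT18, the pair of simple epithelia, fell by less, with log2 differences of -0.95 (SE 0.20) and -0.95 (SE 0.23), and KRT7 had 0.40 (SE 0.25). The number of keratins lower in C13 was 6 without OV2008 vehicle, 7 without OV2008 QC and 5 without either C13 library, and 5 to 12 over all alternatives.

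Of the 14 squamous markers 7 were lower in C13 (KRT6A, KRT13, KRT14, KRT5, SOX2, TP63 and PKP1), LAMB3 was higher and 6 did not pass. That is 57.1% called, against 8.88% of all genes. DSG3 and SERPINB5, which did not pass, had log2 differences of -0.10 (SE 0.36) and 0.38 (SE 0.38). TP63, the master regulator of basal epithelium, fell from 316 and 329 CPM in OV2008 to 108 and 138 CPM in C13 (log2 difference -1.39, SE 0.25, adjusted p = 0.00492), a call lost without C13 vehicle. Kallikreins KLK11, KLK13, KLK5 and KLK8, serine proteases of the epidermis, had log2 differences of -4.72, -3.42, -3.25 and -3.07. SOX2 and PKP1, a desmosomal plaque protein, had -1.76 (SE 0.45) and -1.09 (SE 0.31). In the list of 34 epidermal differentiation genes 6 fell and 3 rose (26.5% called, against 8.88% of all genes). Among those that rose was CST6, cystatin M, at 0.337 and 1.81 CPM in OV2008 and 2.07 and 10.1 CPM in C13 (log2 difference 2.48, SE 0.69, adjusted p = 0.0413), with the QC library above the vehicle library in both lines, and its call was lost without any 1 of the 4 libraries. IVL, involucrin, stood at 0.674 and 0.706 CPM in OV2008 and 1.10 and 1.66 CPM in C13 and did not pass.

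Some mesenchymal genes rose. Of 29 tested, 7 were higher in C13 and none lower (24.1% called, against 8.88% of all genes). The 7 were ZEB2, FN1, TGFBI, VIM, CDH2, FSTL1 and LOXL2. FN1, fibronectin, rose from 4.21 and 7.19 CPM in OV2008 to 32.5 and 36.2 CPM in C13 (log2 difference 2.55, SE 0.38, adjusted p = 0.00117). CDH2, N-cadherin, rose from 23.4 and 50.2 CPM in OV2008 to 107 and 103 CPM in C13 (log2 difference 1.55, SE 0.28, adjusted p = 0.00478). VIM, the intermediate filament vimentin, stood at only 0.225 and 1.01 CPM in OV2008 and 1.97 and 1.93 CPM in C13, and ZEB2, a repressor of epithelial genes, had 0 and 0 counts in OV2008 and 9 and 8 in C13, so both were low in every library. Without OV2008 vehicle only 2 mesenchymal genes were called, and without OV2008 QC, C13 vehicle or C13 QC 5, 4 and 3. TGFBI, an extracellular matrix protein induced by TGF-beta, had a log2 difference of 1.69 (SE 0.38). CDH1, E-cadherin, stood at 309 and 346 CPM in OV2008 and 412 and 524 CPM in C13 (log2 difference 0.52, SE 0.36, adjusted p = 0.415) and did not pass, and EPCAM had -0.26 (SE 0.24). Of 35 epithelial genes, CLDN3, OVOL2, CLDN4 and LSR were higher and EHF and PKP1 lower (17.1% called, against 8.88% of all genes). CLDN4, a tight junction claudin, rose from 37.4 and 68.7 CPM in OV2008 to 176 and 204 CPM in C13 (log2 difference 1.90, SE 0.24, adjusted p = 0.000405), and EHF, an epithelial ETS factor, had -1.38 (SE 0.33).

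Matrix and adhesion genes moved both ways. Of 30 collagens and laminins, COL16A1 and LAMB3 were higher and 6 collagens lower (26.7% called, against 8.88% of all genes). COL5A2 fell from 104 and 57.2 CPM in OV2008 to 5.51 and 6.27 CPM in C13 (log2 difference -3.72, SE 0.32, adjusted p = 1.66e-05), COL5A1 had 36 and 145 counts in OV2008 and 2 and 2 in C13, and COL6A2 had 71 and 34 counts in OV2008 and 0 and 0 in C13. LAMB3, a chain of the basement membrane protein laminin-332, had a log2 difference of 1.09 (SE 0.24). Of 26 integrin and adhesion genes, ITGA4, ITGB3 and ITGB2 were higher and ITGB8, CD44, ITGA6 and ITGA5 lower (26.9% called). ITGB2, the beta subunit of leukocyte integrins, rose from 0.449 and 0.926 CPM in OV2008 to 13.2 and 14.4 CPM in C13 (log2 difference 4.33, SE 0.34, adjusted p = 8.59e-06), whereas ITGA4 had 0 and 0 counts in OV2008 and 22 and 18 in C13 and ITGB3 had 0 and 0 counts in OV2008 and 6 and 3 in C13. CD44, the hyaluronan receptor, fell from 1268 and 1812 CPM in OV2008 to 481 and 638 CPM in C13 (log2 difference -1.46, SE 0.27, adjusted p = 0.0052), a call lost without C13 vehicle, and ITGA6, the laminin receptor subunit, had -1.12 (SE 0.26).

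Among interferon-stimulated genes most calls were higher in C13. Of 40 tested, 12 rose and 2 fell (35.0% called, against 8.88% of all genes). IFI44L, IFI44, IFI27, MX2, IFI6, OAS1, SAMD9L, MX1, EPSTI1, DDX60, ISG15 and OAS3 were higher and IFITM1 and IFITM3 lower. IFI44L, an antiviral response gene, had 0 and 0 counts in OV2008 and 140 and 142 in C13 and was at least 27.8-fold higher. IFI27, a mitochondrial protein, rose from 0.561 and 0.617 CPM in OV2008 to 17.8 and 19.03 CPM in C13 (log2 difference 4.95, SE 0.66, adjusted p = 0.000605). IFI6 rose from 2.81 and 2.07 CPM in OV2008 to 30.4 and 34.4 CPM in C13 (log2 difference 3.75, SE 0.45, adjusted p = 0.000255). OV2008 libraries were low and C13 libraries high for all 3 genes in both treatments. Without C13 QC 5 listed genes were higher, and without any other of the 4 libraries 8 were. ISG15, a ubiquitin-like modifier, had a log2 difference of 1.22 (SE 0.30). IRF1, an interferon regulatory factor, had -0.34 (SE 0.25) and did not pass.

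The promoters of IFI44L, IFI44 and IFI6 are shown because these 3 genes were among the interferon-stimulated genes that rose most and hold the core of the interferon-stimulated response element, that is GAAA, any 2 bases and GAAA again on either strand, in capitals. They lie in the 250 bases before the start on GRCh38.p14 (RefSeq), IFI44L at chr1:78620198-78620447, plus strand, IFI44 at chr1:78649539-78649788, plus strand and IFI6 at chr1:27672193-27672442, minus strand.
IFI44L: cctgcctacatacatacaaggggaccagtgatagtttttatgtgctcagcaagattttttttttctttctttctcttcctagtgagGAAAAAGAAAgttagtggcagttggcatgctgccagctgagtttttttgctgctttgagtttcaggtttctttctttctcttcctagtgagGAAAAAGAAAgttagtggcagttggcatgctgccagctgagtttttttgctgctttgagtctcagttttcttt
IFI44: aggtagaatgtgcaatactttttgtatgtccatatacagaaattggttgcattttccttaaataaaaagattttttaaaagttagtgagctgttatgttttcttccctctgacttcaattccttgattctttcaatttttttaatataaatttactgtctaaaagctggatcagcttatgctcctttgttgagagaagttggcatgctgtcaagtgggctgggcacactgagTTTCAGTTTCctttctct
IFI6: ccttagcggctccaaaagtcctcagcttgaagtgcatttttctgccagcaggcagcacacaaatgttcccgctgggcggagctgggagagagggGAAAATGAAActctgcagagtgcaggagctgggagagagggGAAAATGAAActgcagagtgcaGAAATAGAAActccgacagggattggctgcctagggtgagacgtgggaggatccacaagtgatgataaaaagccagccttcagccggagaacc
The motif occurred in 8 of 11 interferon-stimulated genes that were higher in C13 and had a promoter sequence (72.7%), in 19 of all 32 tested members with one (59.4%) and in 2.35% of the promoters of genes tested (3.07% of all 27305 promoters). As with the antioxidant element, this is a match of letters and not a measured binding site.

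Antigen presentation and cytokine genes also had more rises than falls. Of 20 antigen presentation genes 5 rose and none fell (25.0% called, against 8.88% of all genes). Among those that rose were HLA-B, HLA-F, PSMB10 and NLRC5. HLA-B rose from 23.3 and 20.3 CPM in OV2008 to 75.4 and 94.6 CPM in C13 (log2 difference 1.94, SE 0.30, adjusted p = 0.00148), and NLRC5, the transactivator of class I genes, had 1.03 (SE 0.24). HLA-C and B2M had 0.50 (SE 0.68) and 0.08 (SE 0.23) and did not pass, and reads of HLA genes depend on how well the alleles match the reference. Of 35 NF-kB targets and cytokines 7 rose and 2 fell (25.7% called). CSF2, encoding GM-CSF, stood at 0 and 0.882 CPM in OV2008 and 5.51 and 6.46 CPM in C13 (log2 difference 3.82, SE 0.69, adjusted p = 0.00526). CCL28, a mucosal chemokine, had 1.99 (SE 0.48), IL32 3.01 (SE 0.57) and CXCL3 2.03 (SE 0.58), and CXCL10 had 0 and 0 counts in OV2008 and 32 and 20 in C13. NFKB1, NFKB2 and NFKBIA did not pass, with 0.19 (SE 0.25), 0.87 (SE 0.34) and 0.67 (SE 0.26).

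Growth factor receptor genes were mostly lower where they differed. Of 52 receptor tyrosine kinase and ligand genes 9 fell and 1 rose (19.2% called, against 8.88% of all genes). EGFR fell from 668 and 750.0 CPM in OV2008 to 288 and 314 CPM in C13 (log2 difference -1.24, SE 0.22, adjusted p = 0.00453), a call lost without OV2008 QC or C13 vehicle. INSR, the insulin receptor, fell from 43.2 and 29.6 CPM in OV2008 to 6.92 and 5.82 CPM in C13 (log2 difference -2.49, SE 0.29, adjusted p = 0.000216). IGFBP2, a carrier of insulin-like growth factors, fell from 32.2 and 31.4 CPM in OV2008 to 4.18 and 3.81 CPM in C13 (log2 difference -2.99, SE 0.58, adjusted p = 0.00724). IGFBP3, another carrier, was the one that rose, from 26.6 and 16.5 CPM in OV2008 to 81.5 and 80.7 CPM in C13 (log2 difference 1.95, SE 0.35, adjusted p = 0.00419). PDGFA, a platelet-derived growth factor chain, had -1.40 (SE 0.24) and ERBB2 -0.52 (SE 0.23), which did not pass. Of 53 Wnt and Notch genes 7 fell and 1 rose (15.1% called). TCF7L1, a Wnt-responsive repressor, had -2.16 (SE 0.27), DKK3, a Wnt modulator, -1.54 (SE 0.20), and WNT5A, a noncanonical Wnt ligand, rose by 2.15 on the log2 scale (SE 0.50). CTNNB1, NOTCH1 and JAG1 had -0.05 (SE 0.21), -0.76 (SE 0.24) and 0.33 (SE 0.30).

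The remaining lists were read in the same way. Of 20 aldehyde dehydrogenase and stem cell genes 3 rose and 2 fell (25.0% called, against 8.88% of all genes). ALDH3A1, an aldehyde dehydrogenase of epithelia, rose from 191 and 103 CPM in OV2008 to 504 and 428 CPM in C13 (log2 difference 1.71, SE 0.26, adjusted p = 0.00184), SOX9 had 1.85 (SE 0.36), and ALDH1A1 was near 0 with 2 and 2 counts in OV2008 and 2 and 4 in C13. DNMT3A, a de novo DNA methyltransferase, fell from 12.2 and 18.9 CPM in OV2008 to 3.27 and 6.12 CPM in C13 (log2 difference -1.73, SE 0.33, adjusted p = 0.00638), a call lost without OV2008 QC or C13 vehicle. DNMT1 and DNMT3B did not pass, with -0.35 (SE 0.20) and 0.14 (SE 0.33). HOX genes had 3 falls in 36 (8.33%, near the 8.88% of all genes), HOXD3 and HOXD13 among them, and both of these calls were lost without any 1 of the 4 libraries. Of 6 cancer-testis antigens tested from a list of 40, SPANXB1 and SPANXC rose (33.3% called). SPANXB1 had 0 and 0 counts in OV2008 and 40 and 76 in C13. SPANXC had 0 and 0 counts in OV2008 and 18 and 32 in C13, and the SPANX copies are nearly identical. Cell cycle genes had 2 rises (GINS1 and CDT1) and 1 fall (CCND2, cyclin D2, log2 difference -1.60, SE 0.30) in 45 (6.67%), and glycolysis and hypoxia genes 2 rises (ALDOC and ENO2) and 2 falls (NDRG1 and CA12) in 31 (12.9%). Of 23 genes of serine and asparagine synthesis CTH rose (log2 difference 1.81, SE 0.49) and MTHFD1L, a mitochondrial folate enzyme, fell (log2 difference -1.44, SE 0.21). That is 8.70% of the list, and the call of CTH was lost without OV2008 vehicle, OV2008 QC or C13 QC.

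Most genes that the study follows under QC did not pass the test between the lines, CST6 being the exception. GNL3, which encodes nucleostemin, stood at 145 and 120.4 CPM in OV2008 and 194 and 119.6 CPM in C13, a log2 difference of 0.23 (SE 0.24). The study reports more nucleostemin protein in C13 than in OV2008 by western blot, whereas RNA was measured here. POLR1A, the largest subunit of RNA polymerase I, had -0.78 (SE 0.32). Of 37 ribosome biogenesis genes TAF1C and NOB1 rose and TAF1B and DKC1 fell (10.8% called, near the 8.88% of all genes). ASNS, PHGDH and the stress granule gene G3BP1 had -0.32 (SE 0.45), -0.14 (SE 0.35) and 0.09 (SE 0.26).

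**Figure D4:**
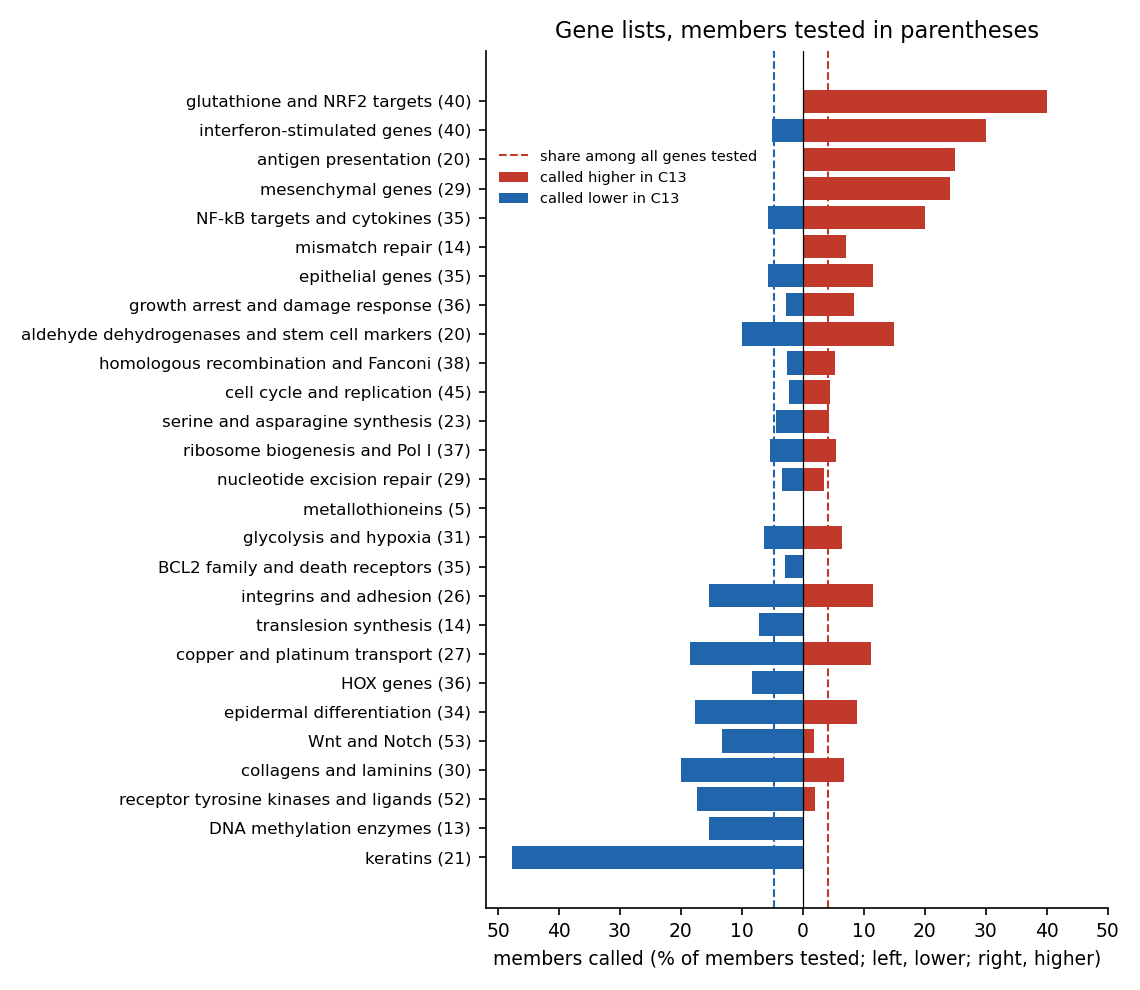
For the pathway gene lists, the bars give the percentage of tested members called higher (right, red) and lower (left, blue) in C13, with dashed lines at the shares among all genes tested, 4.19% and 4.69%. Among the lists drawn, glutathione and NRF2 targets and interferon-stimulated genes reach farthest to the right and keratins farthest to the left. Cancer-testis antigens, with 6 members tested, and the cell type markers are left out.

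Neighbouring genes differed together on some chromosomes. In 435 blocks of about 40 neighbouring genes each, 17480 genes in all, 16 blocks had a median log2 difference above 0.5 in both pairs and 16 below -0.5. The last 8 of the 20 blocks of chromosome 16, from MMP2 to FAM157C, had a median of 0.82 in the vehicle pair and 0.77 in the QC pair over 312 genes. There 95 genes were called higher and none lower (30.4% called), and 89.1% of the genes had a fitted difference above 0. The first 12 blocks of chromosome 16 had medians of -0.07 in both pairs, with 9 genes higher and 21 lower of 477. In the same last 8 blocks the medians were -0.04 for HeyA8-MDR against HeyA8 and 0.01 for SK-OV-3-TR against SK-OV-3.

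The lowest block was the first of chromosome 17, with medians of -1.29 and -1.39. It held 23 genes called lower and none higher of 41, RPA1 among them, and its medians in the HeyA8 and SK-OV-3 pairs were 0.08 and -0.18. The other blocks of chromosome 17 had a median of -0.25 with 84 genes lower and 14 higher of 973. On chromosome X, 102 of 567 genes were lower and 12 higher, with medians of -0.47 and -0.58, and MAGED1, TCEAL8, RTL8B and NUDT11 lie on it. The first blocks of chromosome 2 (23 lower of 82) and 2 blocks of chromosome 6 (23 lower of 80) held no gene called higher. In blocks 2 to 4 of chromosome 5, 21 genes were higher and 2 lower of 121. Blocks 23 to 26 of chromosome 3 had medians of -0.63, -0.57, -0.62 and -0.70 with vehicle and -0.79, -0.60, -0.35 and -0.62 with QC. They held 11, 7, 9 and 10 genes called lower and 0, 1, 0 and 2 called higher. Blocks 1 to 14 of chromosome 12 had fitted medians of -0.62 to -0.18. These runs were chosen after the block medians had been seen. Several listed genes lie in them, NQO1, NLRC5, PSMB10, FANCA, CDT1, NOB1 and TAF1C in the last blocks of chromosome 16. XIAP and DKC1 lie on chromosome X, IGF2R in block 21 of chromosome 6 and IGFBP6 in block 9 of chromosome 12. That block of chromosome 12 held 10 genes called lower and 0 called higher. The naming is not complete, and how far the falls of keratins and other listed genes follow those of neighbours was not tested. NQO1, at 2.35, was well above the median of its neighbours, whereas FANCA (0.80), NOB1 (0.86) and CDT1 (0.90) were close to it. DNA copy number was not measured, and its part in these differences was not tested.

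**Figure D5:**
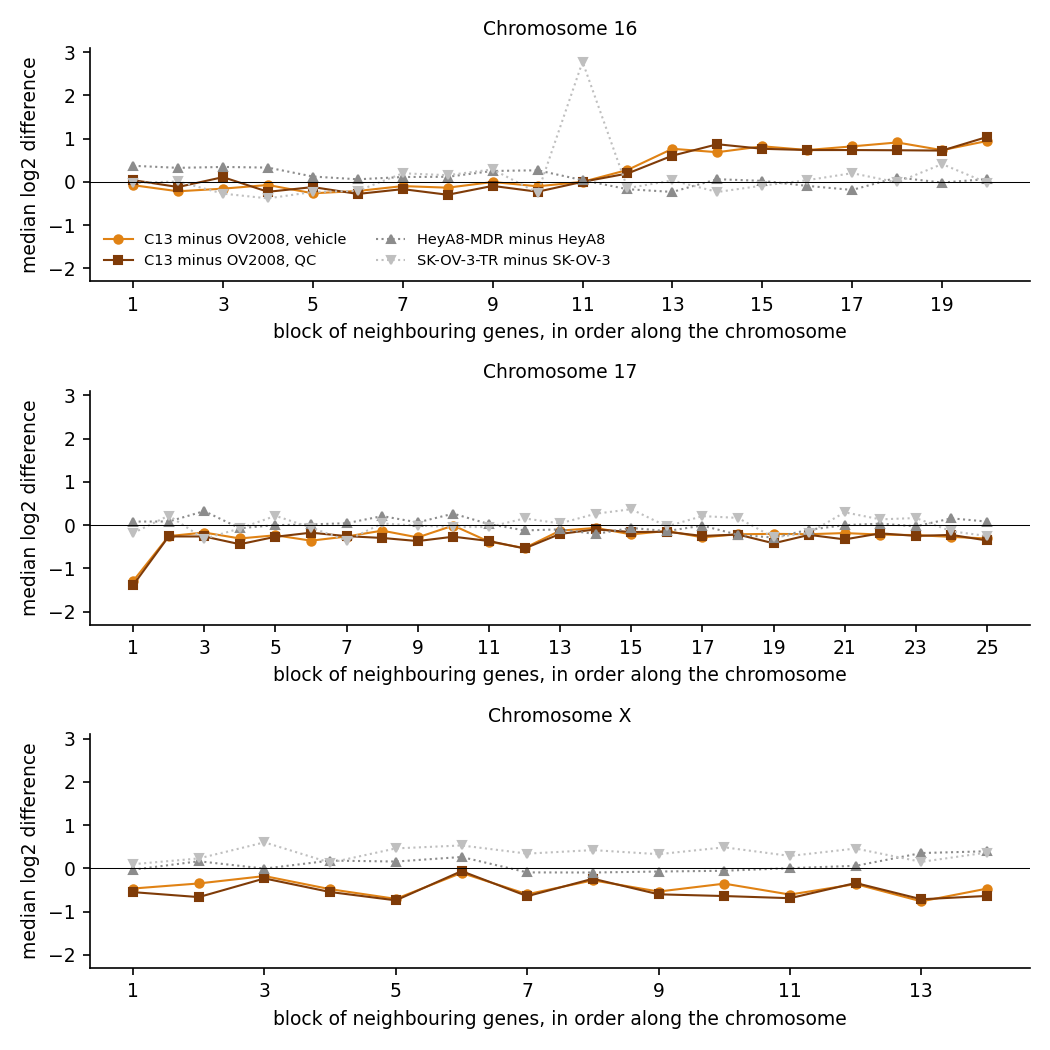
Median log2 difference in consecutive blocks of neighbouring genes along chromosomes 16, 17 and X, for C13 minus OV2008 with vehicle (orange circles) and with QC (brown squares) and for the other resistant and parent pairs (gray). The C13 pair lies near 0 over the first 12 blocks of chromosome 16 and near 0.8 over the last 8, falls to -1.29 and -1.39 in the first block of chromosome 17, and lies below 0 in all 14 blocks of chromosome X. In the eleventh block of chromosome 16 the SK-OV-3 pair rises to 2.78.

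The difference between C13 and OV2008 was next set against the average of the HeyA8-MDR and SK-OV-3-TR differences from their own parents, in a contrast that tests the difference directly. It was called for 2542 genes (12.5%), 1409 with a higher and 1133 with a lower value in the C13 pair. Of the 1812 genes called between C13 and OV2008, 966 (53.3%) were also called in this contrast. The contrast gives no answer for genes without reads in another family: 106 of the 1812 genes had a p above 0.99 despite a fitted difference above 1 log2 unit, and in 102 of these all libraries of the HeyA8 or the SK-OV-3 family were at or below 0.5 CPM. KRT5 and KRT6A are among them.

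Genes of platinum handling differed in how far they were shared. AKR1C1 had log2 differences of 3.15 in the C13 pair, -2.26 in the HeyA8 pair and -3.43 in the SK-OV-3 pair, and the difference from the average of the others was 5.99 (adjusted p = 4.74e-06). NQO1 had 2.35, -1.97 and 0.19, a difference of 3.24 (adjusted p = 3.17e-05), and AKR1C2, GCLM and GCLC were likewise called as higher in the C13 pair. ABCC2 rose in the SK-OV-3 pair too, by 6.16, and its difference between pairs was 0.39 (adjusted p = 0.731). ABCB1 had -5.39 in the C13 pair and 9.53 in the SK-OV-3 pair, a difference of -11.02 (adjusted p = 9.62e-05). AKR1B10 had 3.62, 3.05 and 1.85 and was not called as different (adjusted p = 0.342).

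Of 20403 genes tested, 2 were called higher and 18 lower in every resistant line. Whether these numbers differ from what the shares called in each pair would give was not tested. In the HeyA8 pair 823 genes were called (4.03%), of which 64 were shared with the C13 pair in the same direction and 74 in the opposite one, 3.53% and 4.08% of the C13 pair's calls and 7.78% and 8.99% of the HeyA8 pair's. In the SK-OV-3 pair 6456 genes were called (31.6%), with 439 shared in the same direction (24.2% of the C13 pair's calls and 6.80% of the SK-OV-3 pair's) and 378 in the opposite one (20.9% and 5.86%). C11orf68 and POLD4 were higher in all 3 resistant lines, and 18 genes were lower in all 3, among them COL5A1, BEX2, MATK, APC, the Wnt pathway tumor suppressor, and SLC38A2, an amino acid transporter. APC had log2 differences of -1.30 in the C13 pair, -2.07 in the HeyA8 pair and -1.01 in the SK-OV-3 pair.

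Last, the line difference was tested for dependence on treatment, with a separate QC effect in OV2008 and in C13. This fit left 3 residual degrees of freedom. Its spread came only from the HeyA8 and SK-OV-3 families, the HeyA8 QC library among them. No gene was called by edgeR (0 of 20403, smallest adjusted p 0.726), 473 genes had an unadjusted p under 0.05, and DESeq2 called 9. The genes with the smallest p included DAPK1, a death-associated kinase, at 3.14 and 4.37 CPM in OV2008 and 0.401 and 8.04 CPM in C13, and SLC19A1, the reduced folate carrier, at 39.2 and 2.03 CPM in OV2008 and 47.4 and 14.99 CPM in C13. INHBA, an activin subunit, stood at 0.898 and 25.4 CPM in OV2008 and 2.37 and 8.12 CPM in C13. For DAPK1 the C13 QC library was the highest and the C13 vehicle library the lowest, for SLC19A1 the OV2008 QC library was the lowest, and for INHBA the QC library exceeded the vehicle library more in OV2008 than in C13. Their unadjusted p-values from edgeR were 3.56e-05, 0.000198 and 0.000676, and none remained after adjustment.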

How the data were processed

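RNA was sequenced by the authors from 6 cell lines with vehicle or 8 µM QC for 6 h. The deposited values are raw counts per gene, not normalized. The published methods name TopHat, hg19 and HTSeq, whereas the submitters' processing notes name STAR 2.7.3a, HTSeq 0.6.1p1 and GRCh38.p13, and the strand setting is not given in the sources used here. Gene symbols were matched by Ensembl ID for 58620 of 60669 IDs, and IDs without a symbol held 0.132% of the counts.

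Counts were fitted in R 4.3.3 with edgeR 4.0.16 (quasi-likelihood F test, TMM, filterByExpr with a minimum count of 10 and total of 15), with 1 term per cell line and 1 QC term over 12 libraries (5 residual degrees of freedom). P-values are two-sided and were adjusted by the Benjamini-Hochberg method over 20403 genes. A gene was called when its adjusted p was under 0.05 and its log2 ratio of normalized CPM (prior count 2) had the same sign in both pairs. Log2 differences are fitted values, and SE is the difference divided by the square root of F. Folds against a line with 0 counts use 3 counts per library as a lower bound, and intervals for 1 to 3 counts are exact binomial (95%) and cover counting error only. DESeq2 1.42.0 was an alternative. Simulated data used 19616 genes and the dispersion of the quasi-likelihood fit, and 2 of 19416 unchanged genes were called. The common dispersion of the libraries was 0.0532. Plots were drawn with matplotlib 3.10.9.

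Genes named are the 20 highest and 20 lowest called genes by the smaller of the differences in the pairs with at least 50 counts in each library of the higher line, the core genes and up to 5 called members of each list, the 5 genes in each direction with the smallest p in the other tests, genes the study names, and those beside the threshold. Markers, members of lists given by name, genes in the blocks and ZNF genes of chromosome 19 were named beyond this rule, after their values were seen. The comparison and the lists, written from general knowledge, were chosen with earlier results of these data known. Chromosome and order of genes came from RefSeq by symbol. The results of some single genes are not reported here.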

Additional observations from a re-analysis of the deposited data

Results flagged for a closer look

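The difference between C13 and OV2008 differed from the average difference of HeyA8-MDR and SK-OV-3-TR from their parents in 2542 genes by edgeR's quasi-likelihood test with Benjamini-Hochberg adjustment. The genes with the smallest p in the direction of higher values in the C13 pair were COL16A1, with a difference between pairs of 6.03 on the log2 scale, CCDC9B with 5.40, AKR1C1 with 5.99, CYBA with 5.52 and P4HTM with 5.31. In the opposite direction they were MAGED1 with -10.10, TCEAL8 with -11.23, MTX3 with -8.30, ZNF320 with -8.56 and P3H3 with -5.10. For COL16A1, MAGED1, TCEAL8, MTX3, ZNF320 and P3H3 the C13 pair held most of the difference, and the largest difference in another pair was 2.30 for MAGED1. For CYBA, a subunit of NADPH oxidase, and P4HTM, a transmembrane prolyl hydroxylase, the SK-OV-3 pair held most of it, with -7.81 and -9.75 against 1.48 and 0.37 in the C13 pair. P3H3, a collagen prolyl hydroxylase, had 90 and 120 counts in OV2008 and 4 and 4 in C13, and its log2 difference between C13 and OV2008 was -5.15 (SE 0.34).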

How the results depend on the processing

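The QC term pairs the libraries by treatment, vehicle with vehicle and QC with QC. No further pairing was possible, because there was 1 library per line and treatment. The 1812 genes called between C13 and OV2008 became 1163 without the QC term, 682 with separate QC terms for sensitive and resistant lines, 5358 with only the 4 libraries of the pair (1 residual degree of freedom), and 1124 with at least 1 log2 unit in both pairs. With 1 pair only, the numbers were 543 (vehicle) and 504 (QC). Leaving out 1 library or family gave 561 to 2056: 921 without OV2008 vehicle, 797 without OV2008 QC, 561 without C13 vehicle, 824 without C13 QC, 2056 without the HeyA8 family and 1384 without the SK-OV-3 family, where the lone library of a line is assumed to vary like the other lines. DESeq2's size factors gave 1838, library size 1685, no filter 2458, a minimum of 10 counts in each of the 4 libraries 1665 and DESeq2 2699. The share higher in C13 was 47.2% and rose to 63.5% with library size, which moved the median of all genes from 0.05 to 0.17 on the log2 scale. None of the 1812 genes that could be fitted changed sign under these alternatives. Of 151 named genes called, 64 stayed called under every alternative that could be fitted, among them ABCC2, NQO1, GPX2, KRT5, MAGED1 and IFI44L but not ABCB1, ABCG2, GCLC or RPA1. The 2542 genes that differed from the other pairs became 1350 against the HeyA8 pair, 4062 against the SK-OV-3 pair and 1268 to 1629 without 1 library (1464 without OV2008 vehicle, 1629 without OV2008 QC, 1560 without C13 vehicle, 1268 without C13 QC). Dependence on treatment, with 0 genes, gave 18 without the filter and 9 with DESeq2. DAPK1, which was not called, lay between -3.26 and 1.10 without 1 library, reversing without C13 QC, and was -2.99 (adjusted p = 0.00477) in the vehicle pair alone. Except where a sentence names the construction of an alternative, the cause was not tested. Totals of 18739626 to 29884628 counts and 1 library per line and treatment limit the detection of small differences.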
